A study of Mus musculus with 9 samples.

Results

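The genes described here encode voltage-gated potassium, sodium and calcium channels and the subunits that assemble with them, in the embryonic mouse hypothalamus. Membership went by symbol and took in every Kcn, Scn or Cacn gene whose symbol has the form of a channel subunit, 131 of the 38195 gene symbols measured: 92 of the potassium, 13 of the sodium and 26 of the calcium class. The symbols also bring in potassium channels that are not opened by voltage alone (inward rectifiers, tandem-pore leak channels and channels opened by internal calcium or sodium). They bring in auxiliary subunits too, and the calcium gamma genes known as TARPs, which escort AMPA-type glutamate receptors. They leave out Scn2a1, the symbol under which the table lists the alpha subunit of a main brain sodium channel. Tissue came from outbred CD-1 mice at E12.5 (E for embryonic day), and no genotype or treatment differed between groups. Coronal slices were microdissected into 3 zones, the ventricular zone along the ventricle and the medial and lateral mantle zones outside it, and each zone gave 3 mRNA libraries, numbered 1 to 3. The study looked for genes particular to a region, with Cenpj in its title. Whether libraries of 1 zone had separate embryos or litters as their source is not stated, so p-values measure the spread between these libraries alone, which may be partly technical.

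Voltage-gated channels open when the membrane depolarises. Sodium channels carry the upstroke of the action potential, potassium channels repolarise the cell and set its firing rate, and calcium channels turn depolarisation into calcium entry for transmitter release, gene expression and growth. Pore-forming subunits conduct the ions, while auxiliary subunits set how many channels reach the surface and how they gate. Dividing progenitors along a ventricle are known for mainly passive potassium currents, and young neurons add voltage-gated currents as they migrate away and mature.

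The stretches before the start sites of 4 of these genes are printed because their transcripts stood out by zone: Kcnd2 and Kcnip1 were lower in both other zones than in the lateral mantle zone, Kcnn1 was higher in both, and Kcnk5 was higher in the ventricular zone. Each is the 250 bases before the RefSeq transcript start (GRCm38.p6), read 5′ to 3′ on the strand of the gene. Capitals mark GGGCGG, the GC box (searched on both strands, as GGGCGG or CCGCCC), and the E-box CAGCTG, which reads the same on both strands. For Kcnip1 and Kcnn1, with 3 and 2 RefSeq starts in the table, the start farthest upstream is shown.
Kcnd2: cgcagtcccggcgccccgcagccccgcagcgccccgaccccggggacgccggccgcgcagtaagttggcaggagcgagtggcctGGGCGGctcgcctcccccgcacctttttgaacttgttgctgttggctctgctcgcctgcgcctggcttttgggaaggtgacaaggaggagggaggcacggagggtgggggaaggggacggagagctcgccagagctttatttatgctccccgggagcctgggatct
Kcnip1: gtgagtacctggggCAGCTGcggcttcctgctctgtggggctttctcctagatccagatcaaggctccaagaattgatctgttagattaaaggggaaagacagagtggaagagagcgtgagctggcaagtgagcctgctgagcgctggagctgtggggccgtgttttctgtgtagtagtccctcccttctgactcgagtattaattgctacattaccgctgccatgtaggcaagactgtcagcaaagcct
Kcnn1: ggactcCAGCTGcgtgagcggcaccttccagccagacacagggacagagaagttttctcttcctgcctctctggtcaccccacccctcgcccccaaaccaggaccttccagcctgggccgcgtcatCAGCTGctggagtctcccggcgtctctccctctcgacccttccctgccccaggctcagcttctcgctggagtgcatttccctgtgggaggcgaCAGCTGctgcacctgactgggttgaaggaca
Kcnk5: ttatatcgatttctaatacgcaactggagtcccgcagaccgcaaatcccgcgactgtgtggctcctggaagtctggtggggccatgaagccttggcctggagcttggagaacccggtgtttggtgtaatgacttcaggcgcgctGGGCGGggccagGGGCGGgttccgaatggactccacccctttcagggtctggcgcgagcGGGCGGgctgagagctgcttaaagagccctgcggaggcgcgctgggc
These lie at chr6:21215096-21215345 on the plus strand for Kcnd2, and on the minus strand at chr11:33993194-33993443 for Kcnip1, chr8:70863259-70863508 for Kcnn1 and chr14:20181783-20182032 for Kcnk5. The Kcnd2 stretch held 22 CpG pairs and 1 GC box, and the Kcnk5 stretch 19 CpG pairs and 3 GC boxes. The Kcnip1 stretch held 6 CpG pairs and 1 CAGCTG, and the Kcnn1 stretch 10 CpG pairs and 3 CAGCTG. RefSeq windows (250 bases before to 50 after a start) were found for 96 of the 131 channel genes, 131 windows in all. A GC box occurred in 45.8% of these windows, against 35.7% of the 32851 windows of all genes, and CAGCTG in 27.5% against 16.3%. The median GC content was 58.3% against 52.7%. CAGCTG occurred in 34.0% of the windows of channel genes below the filter on FPKM and in 23.8% of those above it. Windows of 1 gene can overlap, as for Kcnc2, and are counted separately. TATAAA, the TATA box, occurred in 4.58% against 13.6% (searched on both strands). These matches describe letters only.

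Depth and make-up differed between libraries before any channel gene was considered. Low FPKM values move in steps of 1 fragment, and the size of that step implied 4412876 to 8811909 fragments in 7 libraries, 260693 in ventricular replicate 3 and 539660 in medial replicate 3. On a transcript of 6 kb, a common length for channel genes, 1 fragment was worth 0.639 FPKM in ventricular replicate 3, 0.309 in medial replicate 3 and at most 0.0378 in the others. Of the 80 channel genes tested, 35 were listed at 0 in ventricular replicate 3 and 12 in medial replicate 3, against 3 or fewer in each other library. Ventricular replicate 2 stood apart in another way. Summed FPKM of 19 pan-neuronal markers was 1090, 2330 and 850 in ventricular replicates 1, 2 and 3, against 2290 to 2660 in the medial and 3290 to 3770 in the lateral libraries. Summed FPKM of 16 radial glia and progenitor markers was 1960, 1080 and 2490 in the ventricular, 1080 to 1250 in the medial and 92.3 to 139 in the lateral libraries. By both sums ventricular replicate 2 lay within or next to the medial libraries.

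Channel transcripts of all 3 classes were most abundant in the lateral mantle zone. FPKM, a level per length of transcript and per mapped fragments of the library, summed over the 92 potassium channel genes was 191, 293 and 160 in ventricular replicates 1, 2 and 3, 314, 305 and 274 in the medial libraries and 454, 427 and 437 in the lateral libraries. The 13 sodium channel genes summed to 39.2, 77.3 and 36.1 in the ventricular, 84.4, 80.3 and 57.2 in the medial and 127, 133 and 114 in the lateral libraries. The 26 calcium channel genes were the most abundant class, at 386, 563 and 260, then 516, 508 and 410, then 719, 718 and 720 FPKM in the same order. In each class every lateral library lay above every other library, while ventricular replicate 2 lay within the range of the medial libraries for potassium and sodium genes and above it for calcium genes. The number of channel genes at 10 FPKM or more was 17, 18 and 13 in the ventricular, 23, 21 and 18 in the medial and 27 in each of the lateral libraries. In bulk tissue, fewer cells of a type and less RNA per cell cannot be told apart.

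**Figure D1:**
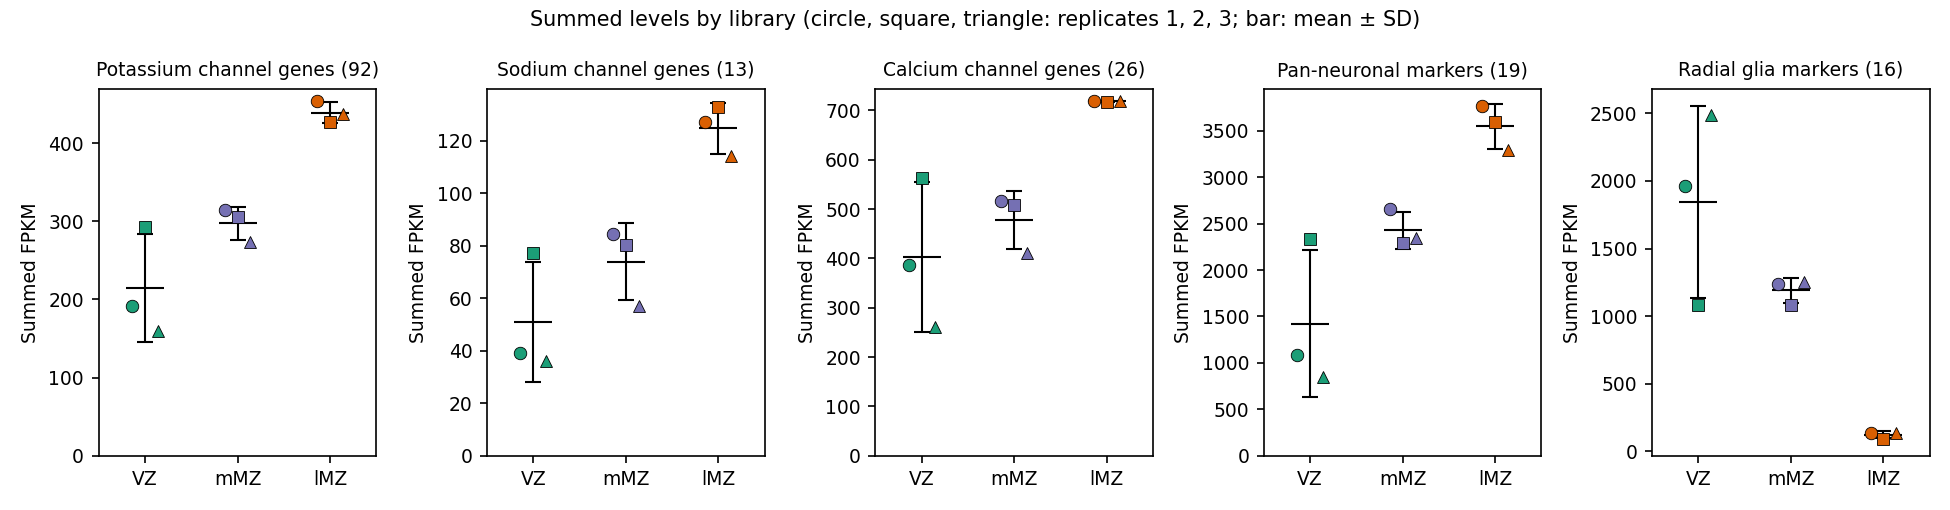
Summed FPKM (y axis, linear) of the 92 potassium, 13 sodium and 26 calcium channel genes, 19 pan-neuronal markers and 16 radial glia markers in each library of the ventricular (VZ), medial mantle (mMZ) and lateral mantle (lMZ) zones (x axis). Symbols are replicates 1, 2 and 3 and bars the mean ± SD of 3 libraries; all lateral libraries lie above all others in the 3 channel panels and in the pan-neuronal panel, and below all others in the radial glia panel, and VZ replicate 2 (square) lies near the medial libraries.

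Between the ventricular and lateral mantle zones, 28 of the 80 tested channel genes were lower in the ventricular zone and 3 were higher (limma on log2(FPKM + 1), Benjamini-Hochberg adjusted p under 0.05 over all 14004 genes tested). The lower genes were 35.0% of the tested channel genes, where 8.93% of all genes tested were lower. The higher genes were 3.75%, where 10.7% of all genes tested were higher, and 19.6% of all genes passed in either direction. A gene was tested when at least 3 libraries reached 1 FPKM. Of the channel genes tested, 6 reached it in the lateral libraries alone (Kcna5, Kcnc4, Kcnh6, Kcnj6, Kcnk1 and Kcnmb2), and 4 of those were among the 28. Outside the lateral zone, Cacng5, also among the 28, reached it only in medial replicate 1 (1.19 FPKM). It too needed its lateral values to be tested, so the 4 are not all such calls. With no filter, 126 channel genes could be fitted and 22 were lower and 4 higher, 20.6% together, where 9.12% of all genes passed. The log2 difference was below 0 in 65 of the 80, with a median of -1.09, against 0.05 over all genes tested. In 48 of them every ventricular library was below every lateral library, 60.0% against 19.9% of all genes tested, and in 6 every ventricular library was above, against 25.2%. The total of 31 was 11 without ventricular replicate 1 and 7, 10 and 13 without lateral replicate 1, 2 and 3. All genes tested passed in 8.56%, 6.85%, 7.29% and 8.93% of cases in these 4 fits. Without both shallow libraries it was 33 lower and 4 higher, where 28.1% of all genes passed, and 28 of the 31 were among them. A pseudocount of 0.1 ended 17 of the 31 calls (Cacna1c, Cacna1d, Cacna2d3, Cacng5, Kcnc1, Kcnc4, Kcnh1, Kcnj6, Kcnj11, Kcnj12, Kcnma1, Kcnmb2, Kcnmb4, Kcnt1, Kcnu1, Scn3b and Scn9a). Fitting these zones alone ended 17 calls as well, Cacna1h and Kcnk10 among them. With no filter 12 were lost. The losses given with single genes are mainly those from left-out libraries.

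All 3 classes took part. Over all genes tested, 8.93% were lower and 10.7% higher in the ventricular than the lateral zone. In the potassium class, 17 of 52 tested genes were lower (32.7%) and 3 higher (5.77%), with a median log2 difference of -0.92. In the sodium class 2 of 7 were lower (28.6%) and none higher (median -1.17). In the calcium class 9 of 21 were lower (42.9%) and none higher (median -1.25). Voltage-gated pore subunits were also counted alone, without those opened by calcium or sodium such as Kcnma1. Of these, 12 of 33 were lower (36.4%) and none higher, with a median of -1.07. Markers of neurons and progenitors differed as well. In the ventricular zone 16 of 19 pan-neuronal markers were lower (84.2%, median -1.50) and 15 of 16 radial glia markers higher (93.8%, median 3.99). The sums over these lists are given with the library make-up, and none of their genes was listed at 0 in every library. Red cell markers were higher in 5 of 6 cases (83.3%, median 2.57) and microglia markers lower in 3 of 9 (33.3%, median -1.18). Of the other lists, 1 each of 5 meninges, 6 oligodendrocyte precursor and 3 cranial ganglion markers were higher. These are 20.0%, 16.7% and 33.3%, each from 1 gene, against the 10.7% of all genes. None of 10 endothelial and 6 pericyte markers passed the threshold. The part of cell make-up in the channel gene differences was not tested.

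**Figure D2:**
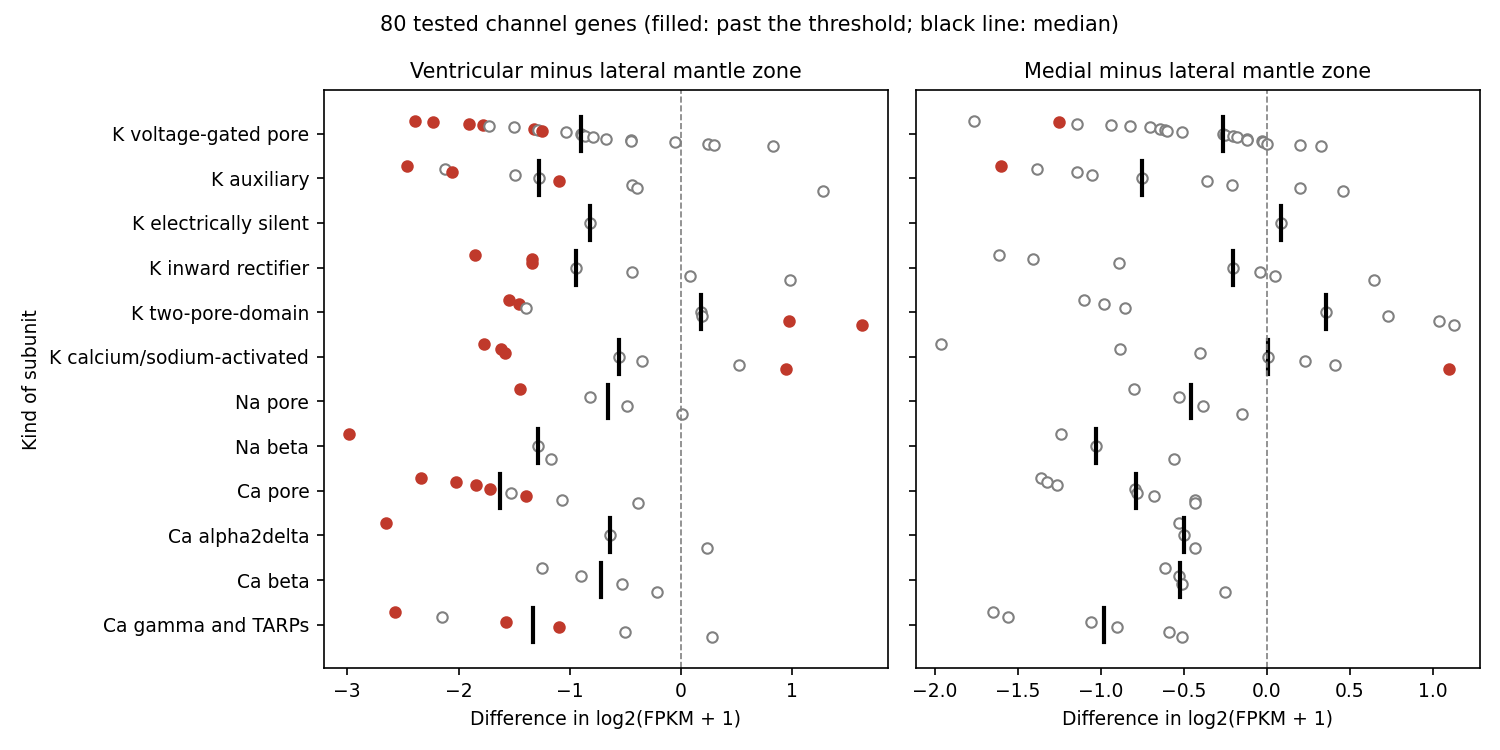
Difference in log2(FPKM + 1) (x axis) of each of the 80 tested channel genes, by kind of subunit (y axis), for the ventricular minus lateral mantle zone on the left and the medial minus lateral mantle zone on the right. Filled points passed the threshold (31 on the left, 3 on the right) and black lines are medians; most points lie left of 0, and the tandem-pore potassium subunits (labelled two-pore-domain) are the kind whose median lies right of 0 in both panels (0.18 and 0.36; the first is -0.16 without both shallow libraries).

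In the A-type potassium channel complex, 3 channel genes and both transmembrane partners were lower in the ventricular than the lateral zone. The complex consists of Kv4 pore subunits (Kcnd genes), cytoplasmic KChIP subunits (Kcnip genes) that speed their delivery and recovery, and the transmembrane partners Dpp6 and Dpp10, and its fast transient current delays firing. Kcnd2 (chr6:21215503-21729805, plus strand, GENCODE M21 on GRCm38) was 1.16, 1.75 and 0.718 FPKM in ventricular replicates 1, 2 and 3, 4.32, 3.27 and 2.44 in the medial libraries and 9.11, 8.87 and 9.62 in the lateral libraries. No library of one zone overlapped another, and the order was ventricular, medial, lateral. The log2 difference was -2.23 ± 0.29 (SE) between the ventricular and lateral zones (limma adjusted p = 0.00164). Kcnip1 (chr11:33629339-33993152, minus strand) was 5.67, 13.6 and 6.80 FPKM in the ventricular, 13.5, 9.52 and 12.1 in the medial and 49.4, 32.4 and 32.1 in the lateral libraries. Its ventricular and medial values overlapped, and both lay far below the lateral ones, with a log2 difference of -2.06 ± 0.32 (SE; limma adjusted p = 0.00336) from ventricular to lateral. Both calls held in each of the 20 alternative settings. Kcnd3, a second Kv4 pore subunit, was 2.90, 6.41 and 1.02, then 8.53, 8.44 and 8.59, then 15.3, 11.9 and 13.7 FPKM, again with no overlap between zones. Its difference of -1.91 ± 0.41 (SE; limma adjusted p = 0.0137) was lost without lateral replicate 1 (adjusted p = 0.0608).

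The other Kcnd and Kcnip genes did not pass. Kcnd1, the third Kv4 gene, was 4.35, 3.07 and 0.699 FPKM in the ventricular and 2.56, 2.71 and 2.14 in the lateral libraries, which overlapped. Among KChIP genes, Kcnip4 was 0.833, 3.47 and 4.42 against 10, 5.72 and 7.65 FPKM and Kcnip2 was 1.21, 3.58 and 0 against 7.52, 2.93 and 5.75 FPKM, ventricular against lateral, and neither passed (adjusted p = 0.0596 and 0.0803). Kcnip3, which also encodes a calcium-dependent transcriptional repressor known as DREAM, ran the other way at 4.37, 2.1 and 14.0 against 1.56, 1.84 and 1.39 FPKM (limma adjusted p = 0.0965). Of the partners outside the channel families, Dpp6 was 13.4, 22.6 and 7.45 FPKM in the ventricular, 33.5, 34.3 and 37.8 in the medial and 56.3, 48.3 and 53.3 in the lateral libraries. Its ventricular to lateral difference was -1.91 ± 0.31 (SE; limma adjusted p = 0.00448). Dpp10 was 0.362, 1.08 and 0, then 1.45, 1.30 and 1.95, then 8.45, 5.89 and 5.07 FPKM in the same order, and passed as well (adjusted p = 0.00266). Neither partner's call was lost without any single library.

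**Figure D3:**
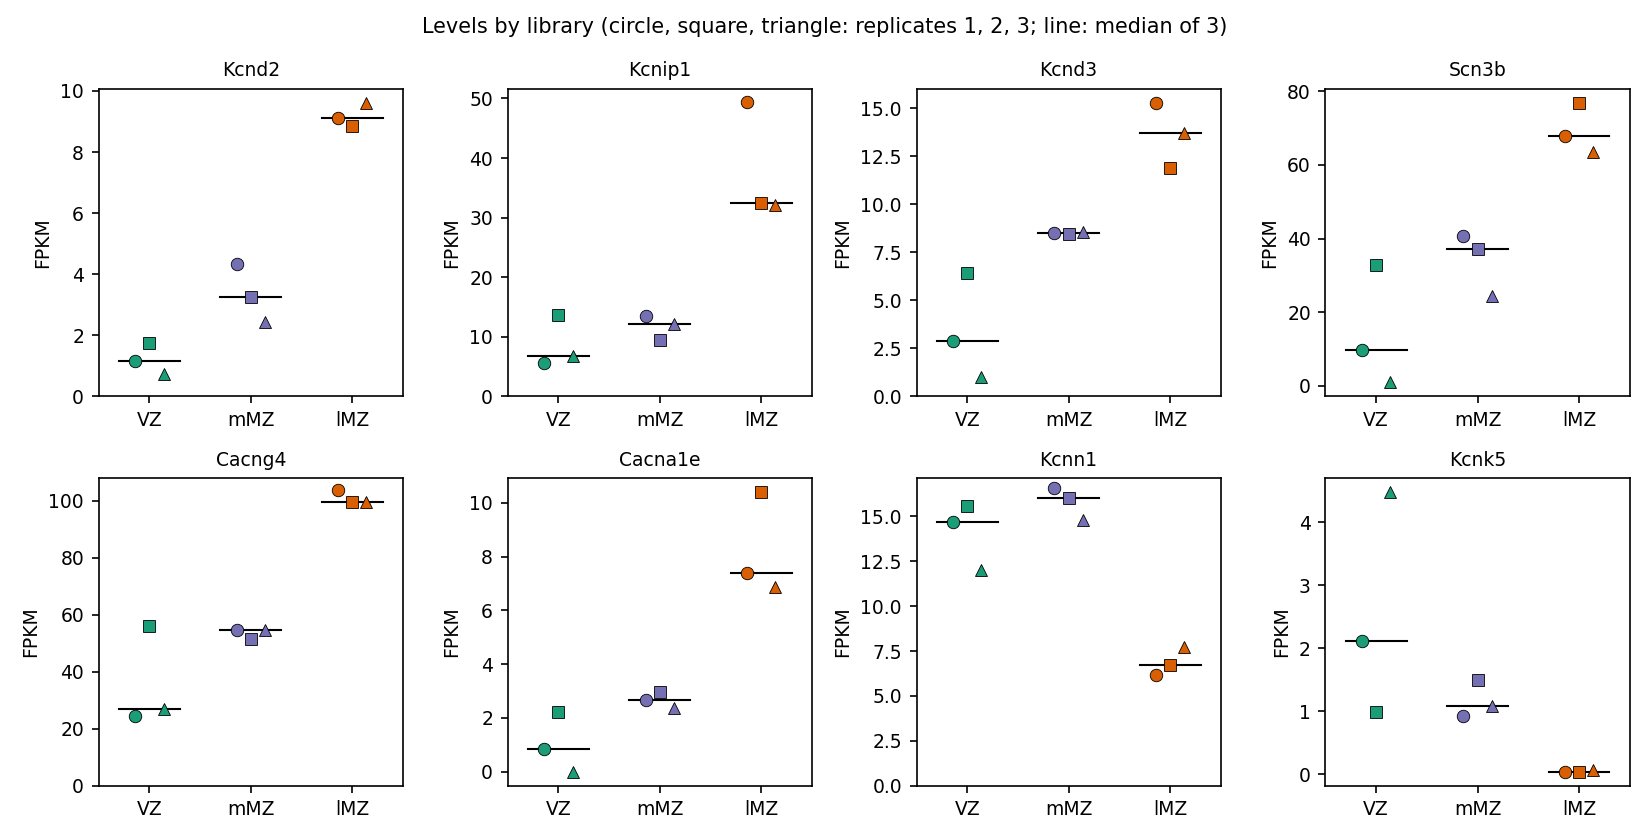
FPKM (y axes, linear, each with its own range) of 8 channel genes in the 3 libraries of each zone (x axis); symbols are replicates 1, 2 and 3 and lines the median of 3 libraries. The lateral libraries are the highest for Kcnd2, Kcnip1, Kcnd3, Scn3b, Cacng4 and Cacna1e and the lowest for Kcnn1 and Kcnk5, and VZ replicate 2 (square) is the highest ventricular library in those first 6 panels.

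Of the 30 voltage-gated potassium pore genes, 21 were tested. Between the ventricular and lateral zones 6 of these were lower in the ventricular zone and none was higher. That is 28.6% lower, against 8.93% of all genes tested. The log2 difference was below 0 in 18 of the 21, and Kcnq3 was among those that ran the other way. Kcnq3, a subunit of the M-current that restrains repetitive firing, was 4.28, 3.92 and 7.30 FPKM in the ventricular, 2.25, 2.95 and 4.95 in the medial and 2.70, 2.83 and 1.71 in the lateral libraries. Every ventricular Kcnq3 value was above every lateral one, and the difference of 0.83 ± 0.34 (SE) did not pass (limma adjusted p = 0.114).

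Kcnh1, the ether-a-go-go channel, and the Kv3 genes Kcnc1 and Kcnc4, whose currents allow fast spiking, were also lower in the ventricular zone. Kcnh1 was 2.69, 3.94 and 0 FPKM in the ventricular, 4.62, 1.55 and 3.74 in the medial and 25.6, 6.61 and 11.9 in the lateral libraries (log2 difference -2.39 ± 0.65, limma adjusted p = 0.0316). The lateral values themselves spread widely. The call was lost without ventricular replicate 1 (adjusted p = 0.0616) or 3 (0.0553) or lateral replicate 1 (0.12) or 3 (0.0827). Kcnc1 was 5.16, 9.03 and 0.943 FPKM in the ventricular, 12.3, 11.2 and 18.8 in the medial and 17.4, 15.6 and 15.0 in the lateral libraries (adjusted p = 0.0376). Its medial and lateral values overlapped. Kcnc4 was at most 0.994 FPKM outside the lateral libraries, where it was 1.70, 2.91 and 1.62 (adjusted p = 0.0343). Kcnc4 was tested only because of its lateral values. Kcnc1 lost its call without ventricular replicate 1, medial replicate 1 or 2 or any lateral replicate (adjusted p = 0.0563 to 0.115). Kcnc4 lost it without ventricular replicate 1 or 3, medial replicate 2 or any lateral replicate (0.0575 to 0.13).

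Several abundant potassium pore genes did not pass. Kcnh2, the ERG channel known for its role in cardiac repolarisation, was 15.9, 26.4 and 13.2 FPKM in the ventricular, 37.0, 30.7 and 24.5 in the medial and 27.9, 26.8 and 47.5 in the lateral libraries (ventricular against lateral, limma adjusted p = 0.0757). Kcnh4 was 15.4, 21.4 and 4.04, then 23.1, 27.5 and 20.6, then 17.1, 24.9 and 32.9 FPKM (adjusted p = 0.158). For both genes the medial and lateral libraries overlapped. Of the Kv1 genes (Kcna), which set the firing threshold along axons, 4 of 8 could be tested and none passed. Kcna3 was 3.68, 7.46 and 0 against 8.44, 11.9 and 10.7 FPKM (adjusted p = 0.0897). Of 10 electrically silent subunits, which form channels only together with Kv2 subunits, Kcnf1 alone was tested. It was 0.908, 0.981 and 1.55 FPKM in the ventricular, 3.20, 3.69 and 2.26 in the medial and 2.63, 2.48 and 3.22 in the lateral libraries, with the ventricular libraries below all others (adjusted p = 0.0687).

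Channels opened by internal calcium or sodium went in both directions. Kcnma1, the large-conductance BK pore that both voltage and calcium open, was 0.431, 2.24 and 0 FPKM in the ventricular, 2.06, 1.95 and 2.32 in the medial and 5.94, 5.28 and 3.25 in the lateral libraries (log2 difference -1.77 ± 0.43, limma adjusted p = 0.0217). Its auxiliary subunit Kcnmb4, the neuronal BK beta subunit, was 3.45, 5.72 and 0, then 8.26 and 7.25 in medial replicates 1 and 2 with replicate 3 above both, then 25.4, 10.7 and 15.0 FPKM (adjusted p = 0.0259). A further BK beta subunit, Kcnmb2, was at most 0.565 FPKM outside the lateral libraries and 2.72, 1.46 and 1.03 in them (adjusted p = 0.0472). Kcnmb2 was tested only because of its lateral values. Of the Kcnmb4 exon bases 31.5% are shared with the antisense genes Kcnmb4os1 and Kcnmb4os2, and no strand is stated for the counting. Kcnma1 lost its call without ventricular replicate 1 (adjusted p = 0.0704) or lateral replicate 1 or 2 (0.0869 and 0.08). Kcnmb4 lost it without ventricular replicate 1 (0.0531) or lateral replicate 1, 2 or 3 (0.102, 0.0582 and 0.0705). Kcnmb2 lost it without any one of 7 libraries, all but ventricular replicate 2 and medial replicate 3 (0.0699 to 0.175), and without both shallow libraries (0.0509).

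Kcnt1, the sodium-activated Slack channel, was 2.47, 8.88 and 9.88 FPKM in the ventricular, 6.42, 5.05 and 2.76 in the medial and 15.0, 33.3 and 17.2 in the lateral libraries (limma adjusted p = 0.0475). Kcnu1, a relative of BK best known from sperm, was 0.596, 1.99 and 0, then 3.38, 2.28 and 3.25, then 4.73, 4.69 and 3.29 FPKM (adjusted p = 0.0233). The Kcnt1 call was lost without ventricular replicate 1, medial replicate 1 or 2, or any lateral replicate (adjusted p = 0.0622 to 0.171). The Kcnu1 call was lost without ventricular replicate 1 (0.0693) or lateral replicate 1, 2 or 3 (0.0871, 0.085 and 0.0534).

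Kcnn1, the small-conductance SK1 channel that calcium opens after a spike, was higher in the ventricular zone. It was 14.7, 15.6 and 12 FPKM in the ventricular, 16.6, 16 and 14.8 in the medial and 6.16, 6.74 and 7.73 in the lateral libraries. The ventricular and medial libraries overlapped each other, and all 6 were above the lateral ones, ventricular replicate 2 included. The difference of 0.94 ± 0.20 (SE; limma adjusted p = 0.0131) was lost without lateral replicate 1 or 2 (adjusted p = 0.0633 and 0.0547). The other SK genes tested, Kcnn2 at 1.45, 3.74 and 7.40 against 1.79, 2.80 and 2.15 FPKM and Kcnn3 at 1.06, 0.661 and 0 against 1.27, 1.34 and 1.08 FPKM, did not pass (adjusted p = 0.407 and 0.27).

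Tandem-pore leak channels (Kcnk), which are open at rest, showed no separation of zones in their sum. Summed over 14 genes they were 26.4, 21.5 and 27.5 FPKM in the ventricular, 34.0, 26.9 and 19.4 in the medial and 23.6, 22.6 and 20.6 in the lateral libraries, which overlapped. Within this sum single genes moved in opposite directions, with 2 higher and 2 lower of 7 tested. These are 28.6% each, against 10.7% higher and 8.93% lower of all genes tested. Kcnk5, the acid-sensitive TASK-2 channel, was 2.12, 0.990 and 4.48 FPKM in the ventricular, 0.927, 1.49 and 1.09 in the medial and 0.0432, 0.0417 and 0.0655 in the lateral libraries (log2 difference 1.63 ± 0.38, limma adjusted p = 0.0186). It was near the value of single fragments laterally. Kcnk10, the TREK-2 channel gated by stretch and lipids, was 12.4, 9.65 and 12.1, then 10.2, 11.2 and 7.34, then 4.55, 6.94 and 4.70 FPKM (0.97 ± 0.26, adjusted p = 0.0285). All ventricular and medial libraries were above all lateral libraries for both genes. Kcnk5 lost its call without ventricular replicate 1 (adjusted p = 0.0555) or lateral replicate 1, 2 or 3 (0.0689, 0.0677 and 0.0594). Kcnk10 lost it without ventricular replicate 1 (0.0857) or lateral replicate 1 or 3 (0.109 and 0.0983), with quantile or TMM scaling (0.058 and 0.0507) and with only these zones fitted (0.0535).

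The leak channels that were lower in the ventricular zone were Kcnk3 and Kcnk1. Kcnk3, the TASK-1 channel, was 0.266, 1.39 and 0 FPKM in the ventricular, 1.51, 1.15 and 1.43 in the medial and 3.60, 3.22 and 2.93 in the lateral libraries (limma adjusted p = 0.0172). Kcnk1, the TWIK-1 channel, was listed at 0 in all ventricular libraries and in medial replicate 3, and was 0.759 and 0.543 in medial replicates 1 and 2 and 1.75, 1.63 and 1.87 in the lateral libraries (adjusted p = 0.012). Kcnk1 was tested only because of its lateral values. Kcnk3 lost its call without ventricular replicate 1 or any lateral replicate (adjusted p = 0.0519 to 0.0714), and Kcnk1 without lateral replicate 1 (0.0523). Kcnk2, the TREK-1 channel, was between 6.25 and 11.6 FPKM in every library and did not pass (adjusted p = 0.625), and 12.2% of its exon bases are shared with another annotated gene.

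Inward rectifiers (Kcnj), which hold the resting potential and couple it to G proteins or ATP, were scarce. Summed over 15 genes they were 7.13, 11.1 and 7.90 FPKM in the ventricular and 19.3, 19 and 15.6 in the lateral libraries. Of 7 tested, 3 were lower in the ventricular zone, 42.9% against 8.93% of all genes tested. Kcnj11, the pore of ATP-sensitive channels, was 1.45, 1.16 and 0 FPKM in the ventricular, 2.03, 1.89 and 0 in the medial and 6.88, 4.79 and 4.40 in the lateral libraries (limma adjusted p = 0.0318). Kcnj6, a G-protein-coupled GIRK subunit, was at most 0.925 FPKM outside the lateral libraries and 2.5, 3.74 and 1.18 in them (adjusted p = 0.0431). Kcnj6 was tested only because of its lateral values. Kcnj12, a strong rectifier, was 0, 0.747 and 0 against 2.67, 2.51 and 1.19 FPKM (adjusted p = 0.0475). Each of these calls was lost without ventricular replicate 1 or 3 or lateral replicate 1 or 2, with adjusted p up to 0.115, 0.159 and 0.154. Kcnj11 was also lost without lateral replicate 3, Kcnj6 without medial replicate 1 or 2 or both shallow libraries (0.0577 for the last), and Kcnj12 without medial replicate 1 or 2 or lateral replicate 3. Kcnj10, the glial potassium-buffering channel, was the 1 rectifier whose ventricular libraries were all above the lateral ones, at 1.78, 1.11 and 0.683 against 0.105, 0.153 and 0 FPKM, and it did not pass (adjusted p = 0.0542).

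Of 7 tested sodium channel genes, Scn3b and Scn9a were lower in the ventricular zone, 28.6% against 8.93% of all genes tested. Scn3b, an auxiliary subunit that modifies sodium channel gating, was 9.76, 32.9 and 0.928 FPKM in the ventricular, 40.7, 37.1 and 24.4 in the medial and 67.9, 76.8 and 63.5 in the lateral libraries. It made up most of the beta subunit sum, which was 12.7, 37.6 and 0.928 in the ventricular and 70.1 to 84.2 in the lateral libraries. The log2 difference of -2.98 ± 0.80 (SE; limma adjusted p = 0.0302) was the most negative of the 80 tested channel genes. Without both shallow libraries it was -1.88 (adjusted p = 0.0135), and Cacng2 at -2.14, Kcnd2, Kcnip1, Cacna2d3 and Cacna1e were more negative. It was lost without ventricular replicate 1 (adjusted p = 0.0711) or lateral replicate 1, 2 or 3 (0.0897, 0.0957 and 0.0776), with a pseudocount of 0.1 (0.053), with no filter (0.0673) and with only these zones fitted (0.0686). Scn2b, another beta subunit, was 2.68, 3.55 and 0 against 4.52, 4.46 and 5.34 FPKM, ventricular against lateral, and did not pass (adjusted p = 0.161).

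Among the 4 tested sodium pores, Scn9a alone passed. Scn3a, the pore subunit most abundant before birth, was 15.1, 28.6 and 26.5 FPKM in the ventricular, 27.1, 26.4 and 20.2 in the medial and 36.9, 30.5 and 29.1 in the lateral libraries. All lateral values were above all others, by little, and the ventricular to lateral difference of -0.49 ± 0.25 (SE) did not pass (limma adjusted p = 0.194). Scn8a, the main pore of mature nodes and axon initial segments, was 7.69, 6.30 and 6.07, then 5.66, 5.89 and 5.91, then 6.36, 7.32 and 6.09 FPKM. The ventricular to lateral difference was 0.01 ± 0.22 (SE; adjusted p = 0.969). Scn9a, best known from sensory and hypothalamic neurons, was 1.48, 2.62 and 0.293 FPKM in the ventricular, 3.4, 3.56 and 2.85 in the medial and 5.17, 5.75 and 4.63 in the lateral libraries. Its zones did not overlap, and the difference of -1.45 ± 0.37 (SE; adjusted p = 0.0265) was lost without ventricular replicate 1 (0.0645) or lateral replicate 1, 2 or 3 (0.0892, 0.0963 and 0.0703). Scn2a1, outside the symbol rule, was 1.47, 4 and 1.40, then 5, 3.77 and 5.31, then 10.9, 8.87 and 11.4 FPKM. Its difference of -1.88 ± 0.33 (SE; adjusted p = 0.00609) held without any single library. The muscle and sensory pore genes Scn4a, Scn10a and Scn11a were below the filter.

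Of 8 tested calcium channel pores, 5 were lower in the ventricular than the lateral zone, 62.5% against 8.93% of all genes tested. Cacna1e, the R-type pore, was 0.836, 2.21 and 0 FPKM in the ventricular, 2.68, 2.97 and 2.36 in the medial and 7.39, 10.4 and 6.89 in the lateral libraries, with no overlap between zones. Its log2 difference was -2.34 ± 0.41 (SE; limma adjusted p = 0.00593). Cacna1i, a T-type pore opened by small depolarisations, was 0.431, 1.36 and 0, then 1.72, 1.68 and 1.27, then 4.77, 7.42 and 3.67 FPKM (-2.02 ± 0.38, adjusted p = 0.00779). Neither call was lost in any of the 20 alternative settings. The L-type pores Cacna1d and Cacna1c, which couple activity to gene expression, were 0.891, 2.15 and 0 against 5.82, 6.23 and 4.60 FPKM and 2.11, 4.02 and 0.489 against 7.12, 6.72 and 5.71 FPKM (adjusted p = 0.0155 and 0.0423). Cacna1d lost its call without lateral replicate 1 or 2 (adjusted p = 0.0637 and 0.0653), and Cacna1c without any one of 7 libraries, all but ventricular replicate 2 and medial replicate 3 (0.0501 to 0.132).

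The T-type genes Cacna1h and Cacna1g were the most abundant calcium pores over the 9 libraries. Cacna1h was 26.1, 70.8 and 14.7 FPKM in the ventricular, 53.0, 54.6 and 70.0 in the medial and 102 in each of the lateral libraries (-1.72 ± 0.44, limma adjusted p = 0.0252). Its medial values overlapped ventricular replicate 2. The call was lost without ventricular replicate 1 (adjusted p = 0.0779) or lateral replicate 1, 2 or 3 (0.0805, 0.0794 and 0.0711). Cacna1g, the third T-type pore, was 59.6, 36.7 and 31.7, then 40.0, 36.8 and 43.6, then 34.5, 71.0 and 65.0 FPKM. Its zones overlapped and it did not pass (adjusted p = 0.377). The P/Q-type and N-type pores that trigger transmitter release, Cacna1a and Cacna1b, were 16.9, 25.6 and 5.34 against 27.8, 31.7 and 28.9 FPKM and 13.4, 32.3 and 3.74 against 50.9, 31.6 and 31.7 FPKM, ventricular against lateral. Neither passed (adjusted p = 0.119 and 0.0865).

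Auxiliary calcium subunits of the alpha2delta and beta families carry pores to the surface. Cacna2d3 was 3.30, 3.56 and 0 FPKM in the ventricular, 12.2, 15.3 and 6.91 in the medial and 15.3, 18.5 and 14.1 in the lateral libraries (-2.65 ± 0.55, limma adjusted p = 0.012), and was lost without lateral replicate 2 (adjusted p = 0.0527). Its medial and lateral libraries overlapped. Cacna2d1, the target of gabapentin, was 32.3, 37.8 and 23.2, then 19, 15.9 and 22.3, then 31.0, 25.0 and 22.1 FPKM, lowest in the medial libraries, and did not pass against the lateral ones (adjusted p = 0.487). None of the 4 beta subunits passed. Cacnb3, the most abundant of all channel genes, was 84.7, 134 and 68.4, then 126, 126 and 87.9, then 123, 132 and 147 FPKM (adjusted p = 0.15). Cacnb1, the beta subunit of muscle that brain also makes, was 31.2, 43.4 and 9.72 against 59.8, 52.4 and 62.3 FPKM, ventricular against lateral (adjusted p = 0.0653).

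The 6 gamma genes tested are counted among the TARPs. Cacng2, which encodes stargazin, was 1.63, 5.5 and 0.670 FPKM in the ventricular, 8.43, 6.21 and 8.79 in the medial and 21, 13.9 and 17.4 in the lateral libraries, with no overlap between zones (-2.57 ± 0.45, limma adjusted p = 0.00556). Cacng4, a TARP of the developing brain, was 24.6, 56.0 and 26.8, then 54.6, 51.6 and 54.8, then 104, 99.6 and 99.5 FPKM (-1.57 ± 0.27, adjusted p = 0.00516). Ventricular replicate 2 was at the medial level, and all lateral libraries were far above. Both calls held in each of the 20 alternative settings. Cacng5 was at most 1.19 FPKM outside the lateral libraries and 2.65, 1.43 and 1.30 in them (adjusted p = 0.0445). Without its lateral values it would not have been tested. It lost its call without any one of 7 libraries, all but ventricular replicate 2 and medial replicate 3 (adjusted p = 0.0678 to 0.166), and without both shallow libraries (0.0538). Cacng7 was 55.6, 59.1 and 47.4 FPKM in the ventricular, 55.1 and 52.7 in medial replicates 1 and 2 and 41.1, 49.0 and 43.1 in the lateral libraries, and was listed at 0 in medial replicate 3. It was among 15 genes listed at 0 in that library alone while all others held at least 10 FPKM, which makes that 0 a possible failed estimate. Its neighbour Cacng8 was listed at 0 in medial and ventricular replicate 3 and was 7.09 to 22.4 FPKM elsewhere.

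**Figure D4:**
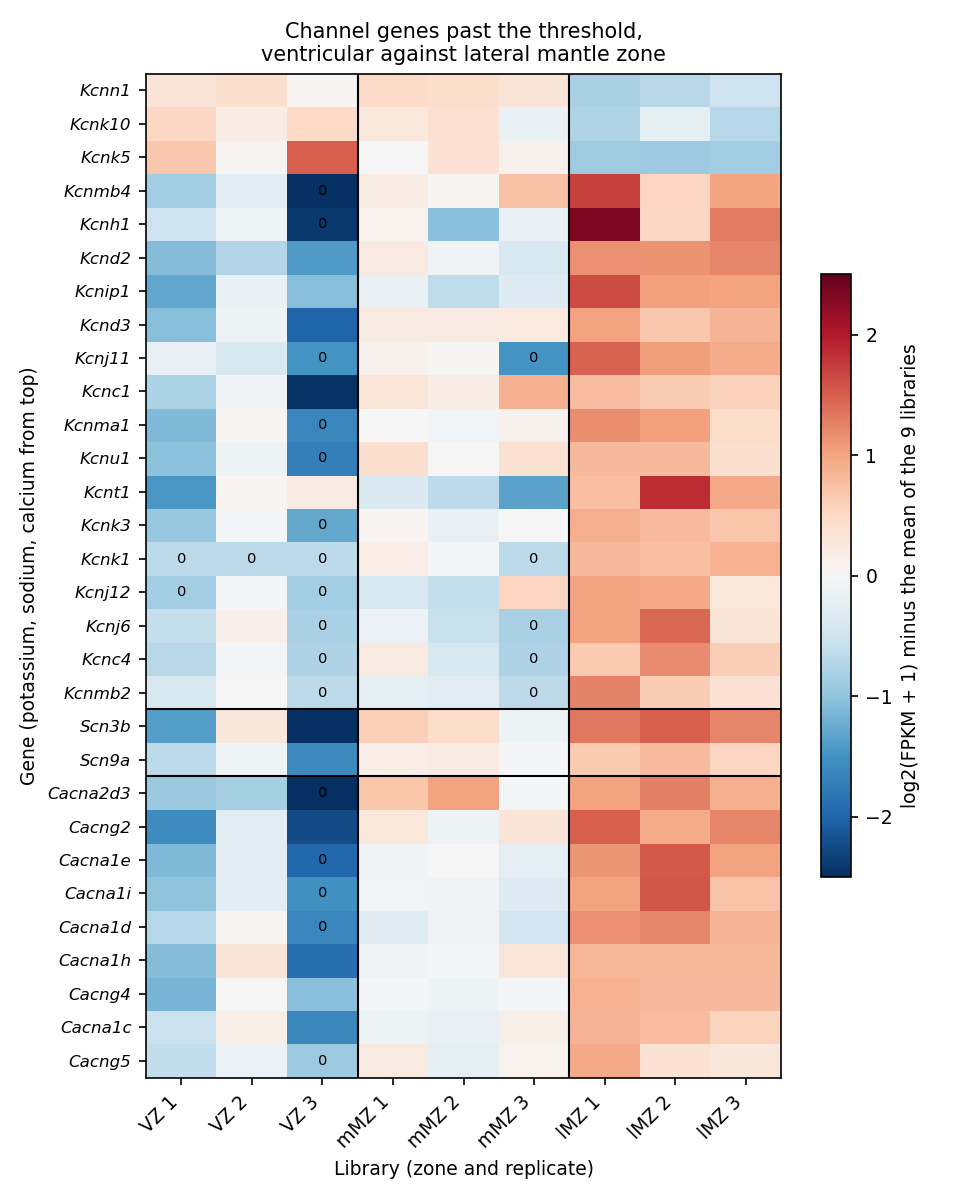
Colour shows log2(FPKM + 1) minus the mean over the 9 libraries (x axis, by zone and replicate) for 30 of the 31 channel genes (y axis) past the threshold between the ventricular (VZ) and lateral mantle (lMZ) zones, with potassium, sodium and calcium genes from the top and a printed 0 where the value is listed at 0. The lateral libraries are red for the 27 lower genes shown and blue for Kcnk5, Kcnk10 and Kcnn1 (mMZ, medial mantle zone).

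Between the medial and lateral mantle zones 3 channel genes passed. Kcnip1 (log2 difference -1.60 ± 0.32, limma adjusted p = 0.0225) and Kcnd2 (-1.25 ± 0.29, adjusted p = 0.0443) were lower medially, and Kcnn1 (1.10 ± 0.20, adjusted p = 0.0152) was higher. Their values in each library are given above, and for each the medial and lateral libraries did not overlap. The share of all genes tested that passed was 4.12%, 0.543% lower and 3.58% higher in the medial zone, against 2 and 1 of 80 channel genes. In 38 of the 80 every medial library was below every lateral library, against 14.8% of all genes tested, and in 8 every medial library was above, against 25.7%. The 38 were 19 of 52 potassium, 7 of 7 sodium and 12 of 21 calcium genes. The median log2 difference was -0.53, against 0.10 over all genes tested. Cell type markers differed between these zones too, with 15 of 16 radial glia markers (median 3.12) and 5 of 6 red cell markers (median 2.34) higher medially, and 1 of 19 pan-neuronal markers lower (median -0.61). Their part in the channel gene differences was not tested. Dpp10, the partner of the A-type complex, was also lower medially (adjusted p = 0.0402), and its call was lost without any one of 7 libraries (0.0656 to 0.177). This comparison shares its lateral libraries with the one above.

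These 3 calls were sensitive to single libraries. Kcnip1 was lost without any one medial or lateral library (limma adjusted p = 0.0556 to 0.112), Kcnd2 also without ventricular replicate 1 (0.0697 to 0.167), and Kcnn1 without medial replicate 1 or 2 or lateral replicate 1 or 2 (0.0712 to 0.0817). The count was 0 without medial replicate 1 or 2 or lateral replicate 1 or 2, and 1 without medial replicate 3 or lateral replicate 3. In these fits 1.48% to 2.11% of all genes passed. It was 8 without ventricular replicate 2 and 15 without ventricular replicate 3, libraries that enter only the shared estimate of spread, where 6.35% and 12.6% of all genes passed. Without both shallow libraries 6 were lower and 4 higher, and 11.9% of all genes passed. Quantile normalization gave 8 lower and 1 higher and TMM scaling 3 and 1, where 5.65% and 4.07% of all genes passed. The median difference over all genes tested went from 0.10 to -0.01 and -0.02 under these scalings. The 3 calls passed in the same direction under both. Kcnd2 was also lost with a pseudocount of 0.1 or 0.5 and with no filter (adjusted p = 0.0912, 0.0603 and 0.0934). Kcnt1 was close to the threshold (-1.96 ± 0.49, adjusted p = 0.0553).

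Between the ventricular and medial mantle zones no channel gene passed, and 0.0% of all genes tested did (limma). At an unadjusted p under 0.05 there were 15 of the 80 channel genes, against 11.9% of all genes tested. The median log2 difference was -0.46. In 10 genes every ventricular library was below every medial library, against 9.3% of all genes tested: Cacna1e, Cacna2d3, Cacng2, Kcnc1, Kcnd2, Kcnd3, Kcnf1, Kcnmb4, Kcnu1 and Scn9a. In 2 genes, Cacna2d1 and Scn8a, every ventricular library was above, against 5.36%. Without ventricular replicate 2, whose markers resemble the medial libraries, 9 channel genes were lower in the ventricular zone, 11.2% of those tested, where 4.08% of all genes passed in either direction. With array weights 23 were lower and 1 higher, 30.0% together, where 19.7% of all genes passed.

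Across the 3 zones, the means of 50 of the 80 tested channel genes rose in the order ventricular, medial, lateral, 62.5% against 24.9% of all genes tested. The lateral mean was the highest in 58, 72.5% against 32.6%. By class the order held for 28 of 52 potassium, 6 of 7 sodium and 16 of 21 calcium genes. All 9 libraries kept this order without overlap in 5 genes, Kcnd2, Kcnd3, Scn9a, Cacna1e and Cacng2, against 1.77% of all genes tested. The medial mean was the highest in 10 genes, all of the potassium class, and the ventricular mean in 12.

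Transcripts of proteins that bind or place these channels went mainly the same way in sign between the ventricular and lateral zones. The log2 difference was below 0 in 22 of 25 tested, while 14 of the 25 did not pass. Of 25 tested channel partners, 10 were lower in the ventricular zone and 1 was higher, 40.0% lower against 8.93% of all genes tested, with a median log2 difference of -0.95. Dlg2, a scaffold that clusters potassium channels, was 0.423, 4.76 and 0 FPKM in the ventricular, 5.34, 3.39 and 6.67 in the medial and 25.9, 15.3 and 18.4 in the lateral libraries (-3.34 ± 0.58, limma adjusted p = 0.00558). Sptbn4, the spectrin of the axon initial segment, was 1.01, 7.02 and 0 against 15.6, 22.9 and 13.4 FPKM, ventricular against lateral (adjusted p = 0.0184), and was lost without ventricular replicate 1 (0.0634) or lateral replicate 1 or 2 (0.0629 and 0.074). Cntn2, an adhesion molecule of early axons and later of the region beside nodes, was the higher one, at 48.8, 34.3 and 27.5 against 16.8, 11.1 and 13.8 FPKM (adjusted p = 0.013). It was lost without ventricular replicate 1 (0.0508) or lateral replicate 2 (0.0585). Ank3 and Dlg4, which anchor sodium and potassium channels, did not pass (adjusted p = 0.157 and 0.0841). A further list, mainly of cation channel genes outside the symbol rule, had 18 tested genes. It also holds Clcn2 and Clcn3, which move chloride, and Scnm1, which encodes a splicing factor. Of the 18, Scn2a1 and Trpc5 were lower and none was higher, with a median of -0.63. These are 11.1%, near the 8.93% of all genes tested. Trpc5 was listed at 0 in ventricular replicates 1 and 3 and was 0.242 in replicate 2. It was 0.303, 0.223 and 0.436 FPKM in the medial and 3.18, 1.27 and 2.1 FPKM in the lateral libraries. Trpc5 was tested only because of its lateral values. Its call (adjusted p = 0.0118) was lost without lateral replicate 1 (0.0587).

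The 51 channel genes that were not tested were at most 1.61 FPKM in any library, a value reached by Cacng1, a calcium channel subunit of skeletal muscle. They were 40 of the potassium, 6 of the sodium and 5 of the calcium class. Kcna10, Kcna7, Kcnj16, Kcnk16 and Kcnmb3 were listed at 0 in all 9 libraries. All 4 Kcne genes, small partners of Kcnq1, and Kcnq1 itself were among the untested, as were all Kcng, Kcns and Kcnv genes. A 0 in the shallow libraries says little, since 1 fragment on 2 kb was worth 1.92 FPKM in ventricular replicate 3 and 0.927 in medial replicate 3.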

How the data were processed

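The authors deposited FPKM values, 1 per gene and library, as fragments per kilobase scaled to the mapped fragments. Bowtie2 2.1.0 and the mm10 build are named in the submitters' processing notes, while the sources used here do not name the program behind the FPKM values. NEBNext Ultra RNA libraries were read as 100 bp pairs, per the labels' protocols, with no strand stated, and 39 of the 131 channel genes share exon bases with another annotated gene. From 38370 rows, 42 exact copies were dropped, and where a symbol recurred its highest row by mean was kept, which dropped 133 more, 2 of them channel rows (Kcnb2 and Scn4a).

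Tests used log2(FPKM + 1), a scale that understates changes of genes with low values. The model had a mean for each zone over all 9 libraries, with an intensity trend, fitted in limma 3.58.1 (R 4.3.3) to the 14004 genes that reached 1 FPKM in 3 or more libraries. P-values were two-sided and Benjamini-Hochberg adjusted within each comparison. The fit was tested on simulated data with the same spread in all libraries and with changes only in genes above a low level. That simulation cannot show how the fit does with shallow libraries or with genes at low levels. The named genes were, per class, those past the threshold with the largest difference (up to 12 potassium, 4 sodium and 6 calcium) and those with the highest mean (8, 4 and 6), and others are named in sentences on their subfamily. The gene families, lists and rules were chosen with earlier results of these data known, and membership then followed from the symbols. Alternatives covered pseudocount, filter, scaling, trend, library weights, fitting only the compared zones, a replicate block and left-out libraries. Coordinates are GENCODE M21 gene spans on GRCm38. Depth was estimated from the steps of low values and is relative. Results for some single genes that the rule would name are not reported here, though counts and sums include them.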

Additional observations from a re-analysis of the deposited data

How the results depend on the processing

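Between the ventricular and lateral mantle zones, the 31 channel genes past the threshold became 14 with a pseudocount of 0.1, 58 with array weights (52 lower, 6 higher) and 14 with only these zones in the fit, and ran from 7 to 46 when each library was left out in turn (7 without lateral replicate 1, 46 without ventricular replicate 2). Under the pseudocount of 0.5, the looser and stricter filters, quantile and TMM scaling, no trend and leaving out both shallow libraries, the count was 24 to 37. The share of all genes that passed in these settings was 9.12% to 28.1%. Between the medial and lateral mantle zones, the 3 became 36 with array weights. They became 9 with quantile normalization, 20 with only these zones in the fit and 10 without the shallow libraries, where 5.65%, 14.5% and 11.9% of all genes passed. The count ran from 0 to 15 when each library was left out, where 1.48% to 12.6% of all genes passed. Between the ventricular and medial mantle zones, the 0 became 24 with array weights and ran from 0 to 9 when each library was left out. The 9 came without ventricular replicate 2, where 4.08% of all genes passed. With array weights 48.6%, 26.4% and 19.7% of all genes passed in the 3 comparisons. The causes of these shifts were not tested. No named gene reversed the direction of a call in any of the 20 alternatives.

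Whether the replicate numbers pair the libraries was not settled. Deviations from the zone means correlated at -0.0984 to 0.249 between same-numbered libraries of different zones, and at -0.247 to 0.231 between differently numbered ones. The highest value was between ventricular and medial replicate 3, the shallow libraries. Not every library correlated best with its own number. With a replicate block the counts were 32, 3 and 0 channel genes in the same order of comparisons. Of all genes tested, 20.7%, 5.02% and 0.0% passed, against 19.6%, 4.12% and 0.0% without the block. Of the calls without the block, 29 of the 31 and 2 of the 3 were shared. The block ended the calls of Cacng5 and Kcnj12 between the ventricular and lateral zones (limma adjusted p = 0.0556 and 0.0693) and of Kcnd2 between the medial and lateral zones (0.0562). Depth limits ventricular replicate 3 and medial replicate 3 most, where channel genes with long transcripts and low levels fall to 0 or 1 fragment.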

Other observations

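Ion pumps and transporters, which build the gradients that channels use, and the REST complex, a repressor of neuronal genes, were read from lists outside the channel families. Of 13 tested pump and transporter genes, 5 were lower in the ventricular zone than laterally and none was higher, 38.5% lower against 8.93% of all genes tested, with a median log2 difference of -0.88. Atp1b1, a beta subunit of the sodium pump, was 15.8, 30.6 and 4.77 FPKM in the ventricular, 32.4, 24.3 and 24.6 in the medial and 80.7, 55.3 and 58.0 in the lateral libraries (limma adjusted p = 0.0183). It did not pass without ventricular replicate 1 or any one lateral replicate (0.0509 to 0.0748). Atp1b3, another beta subunit, was 30.5, 35.5 and 60.5 against 43.0, 37.8 and 43.7 FPKM, ventricular against lateral, and did not pass (adjusted p = 0.933).

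Of 10 tested genes of REST and its partners, Rcor2 and Rcor1 were higher in the ventricular zone and none was lower, 20.0% higher against 10.7% of all genes tested. Rcor2, a corepressor, was 172, 113 and 198 FPKM in the ventricular, 84.5, 92.6 and 84.3 in the medial and 33.8, 33.8 and 42.5 in the lateral libraries, without overlap between zones (2.07 ± 0.21, limma adjusted p = 0.00067). Rcor1 (adjusted p = 0.0184) did not pass without ventricular replicate 1 or any one lateral replicate (0.0565 to 0.0754). Rest itself was 4.94, 2.74 and 3.14 against 0.715, 0.857 and 2.28 FPKM, ventricular against lateral, and did not pass (adjusted p = 0.0615).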
